A study of Mus musculus with 4 samples.

Results

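The Gimap genes encode a family of small lymphocyte GTPases that lie side by side on mouse chromosome 6. The 8 members followed here, Gimap1, Gimap3, Gimap4, Gimap5, Gimap6, Gimap7, Gimap8 and Gimap9, were taken by name out of the 31053 genes in the matrices. Each was measured in germinal center (GC) B cells of every annotated subtype, in B and T cells outside that annotation, and in 4 genotypes. They were selected on measured values of these libraries, since Gimap6 was known from earlier work on the same counts to have a low ratio of CK over WT in centroblasts. Their levels are therefore a description and no test is attached to them.

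Spleens came from mice immunized with sheep red blood cells (SRBC), a T cell-dependent antigen, and were taken at day 10. Cells were enriched with B220 beads and sorted as B220+IgD-, a gate that keeps GC B cells and leaves out most naive B cells, and were profiled with the 10x Chromium 3' kit. All 4 mice carried Cg1Cre+/-, a Cre driven from the C-gamma-1 locus and active mainly in B cells responding to antigen. WT carried Cg1Cre+/- alone, C added Crebbp fl/+, K added Kmt2d fl/+, and CK added both floxed alleles. Crebbp encodes a histone acetyltransferase and Kmt2d a histone methyltransferase, both acting at enhancers. The mice were young adult, age-matched females on a C57BL/6J background. Each genotype was 1 mouse and 1 library, so every difference compares libraries rather than conditions and no p-value can be given. A row of 4 values always runs WT, C, K, CK.

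The libraries held 8071 to 12852 barcodes and 33270825 to 39803865 unique molecular identifiers (UMIs), with a median of 2202.5 to 3201 UMIs per cell. The deposited annotation covered 1227 WT, 2041 C, 2583 K and 3953 CK cells, and pairs of libraries shared 17 to 31 barcodes. Levels are given as CPM, the UMIs of a gene scaled by all UMIs of the class and library. Crebbp stood at 68.4, 43.0, 38.6 and 38.0 CPM in annotated GC B cells and Kmt2d at 18.5, 21.3, 9.85 and 15.1 CPM. Reads from transcript ends need not cross a floxed part, and these levels say nothing about the alleles. K stood apart from the other libraries, with a median K over WT log2 ratio of all genes at -0.15 in centroblasts and -0.19 in T-like cells. The same median for CK over WT was -0.04 and -0.01. Ratios below are therefore centred on the median over all genes of the same class.

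GIMAP proteins (GTPases of immunity-associated proteins) share a guanine nucleotide-binding domain related to that of the septins, and some, such as GIMAP1 and GIMAP5, sit on intracellular membranes. Several act in lymphocyte survival. GIMAP1 is needed to keep mature B and T cells alive, GIMAP5 resides on lysosomes and its loss causes lymphopenia in rodents, and GIMAP3 is its closest relative. GIMAP6 binds the autophagy protein GABARAPL2, GIMAP7 can stimulate the GTPase activity of other members, and GIMAP4 has been tied to T cell apoptosis. GIMAP8 carries several GTPase domains in a single protein. They are best known from T cells, and resting B cells also express them.

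The 8 genes lie within 123.618 kb of chr6:48647234-48770851 (GRCm38). In order they are Gimap8, Gimap9, Gimap4, Gimap6, Gimap7, Gimap1, Gimap5 and Gimap3, with 6 on the plus strand and Gimap6 and Gimap3 on the minus strand. A read-through gene, Gm28053, spans chr6:48718607-48752644 and shares 81 exonic bases with Gimap7, 198 with Gimap1 and 153 with Gimap5. None of these fell in the last 500 exonic bases of a member, where 3' reads gather, and Gm28053 itself had 0 to 18 UMIs in any library of centroblasts, centrocytes, non-GC B-like or T-like cells. Gimap3 and Gimap5 share 190 stretches of 50 bases in their transcripts and the other 6 members share none, so a read from the common stretch of Gimap3 and Gimap5 cannot be placed.

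The upstream sequences are shown because the members differed in how far T cells exceeded GC B cells, and these 5 cover both ends of that range. Each line gives the 250 bases before a RefSeq transcript start (GRCm38.p6), 5' to 3' on the gene's strand. Capitals mark ETS (AGGAAG), RUNX (TGTGGT) and KLF (CCACCC) letters on either strand. Gimap1 and Gimap9 had the smallest T cell over centroblast folds of the family, Gimap4 and Gimap3 the largest, and Gimap6 had among the lowest CK over WT ratios.
Gimap1, chr6:48738797-48739046, plus strand: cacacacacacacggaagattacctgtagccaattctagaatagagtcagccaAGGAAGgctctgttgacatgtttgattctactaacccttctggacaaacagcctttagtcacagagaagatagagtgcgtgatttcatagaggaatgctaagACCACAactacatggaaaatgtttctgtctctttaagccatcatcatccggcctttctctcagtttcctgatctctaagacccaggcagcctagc
Gimap9, chr6:48675885-48676134, plus strand: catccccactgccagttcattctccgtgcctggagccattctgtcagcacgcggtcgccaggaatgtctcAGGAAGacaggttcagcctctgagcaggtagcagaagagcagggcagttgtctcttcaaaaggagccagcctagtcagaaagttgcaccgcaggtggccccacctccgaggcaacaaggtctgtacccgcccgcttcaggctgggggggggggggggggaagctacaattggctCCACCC
Gimap4, chr6:48684328-48684577, plus strand: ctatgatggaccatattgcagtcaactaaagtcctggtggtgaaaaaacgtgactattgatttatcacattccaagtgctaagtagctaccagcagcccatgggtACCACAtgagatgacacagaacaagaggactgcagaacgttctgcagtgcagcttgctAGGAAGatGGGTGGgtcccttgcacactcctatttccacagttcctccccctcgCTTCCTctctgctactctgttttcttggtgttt
Gimap3, chr6:48770852-48771101, minus strand: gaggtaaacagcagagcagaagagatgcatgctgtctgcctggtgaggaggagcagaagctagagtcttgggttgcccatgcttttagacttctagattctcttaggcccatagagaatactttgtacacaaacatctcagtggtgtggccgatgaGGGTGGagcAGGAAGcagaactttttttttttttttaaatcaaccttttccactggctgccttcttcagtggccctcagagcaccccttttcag
Gimap6, chr6:48708245-48708494, minus strand: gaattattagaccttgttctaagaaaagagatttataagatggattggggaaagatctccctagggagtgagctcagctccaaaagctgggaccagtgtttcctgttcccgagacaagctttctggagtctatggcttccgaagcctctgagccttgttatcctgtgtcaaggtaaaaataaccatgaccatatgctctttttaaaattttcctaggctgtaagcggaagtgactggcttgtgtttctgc

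Among the 9 upstream windows of the 8 genes, 7 held the ETS letters, against 29.5% of 32851 windows of all genes. RUNX letters stood in 3 of 9 against 14%, and KLF letters in 5 of 9 against 28.1%. The Gimap6 window held none of them, as did 1 of the windows of Gimap8. FOXO letters (GTAAACA) were found for Gimap3 alone, against 3.17% of all windows. E2A letters (CAGGTG) were found for Gimap9 alone, against 17.2%. No member window held the cAMP response element TGACGTCA, found in 1.55% of all windows. Matches are letters only, and no binding was measured.

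Cells outside the annotation were clustered without Gimap, immunoglobulin or mitochondrial genes and named from marker genes. T-like cells held 8067 to 8834 CPM summed over 8 T cell markers and 345 to 427 CPM over 6 B cell markers. Centroblasts (CB) held 69.7 to 88.4 CPM of the T cell markers and 6711 to 7588 CPM of the B cell markers. T-like cells numbered 1527, 1945, 1715 and 3172, although the gate was B220+. Fewer transcripts per cell and a change in the mix of cells within a class cannot be told apart in these sums.

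In CPM, the family was lowest in plasma-like, plasmacytoid dendritic cell (pDC)-like and GC B cells. It was intermediate in B cells outside the GC, and highest in T and natural killer (NK)-like cells. Summed over the 8 genes, CB held 757, 657, 529 and 451 CPM. Centrocytes (CC), the light zone counterpart of CB, held 1037, 988, 918 and 881 CPM in the same order. Every CC library was above every CB library. Transitioning cells between them held 936, 855, 733 and 655 CPM, which overlapped with CB. Prememory cells held 1049, 874, 855 and 935 CPM and overlapped with CC.

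Non-GC B-like cells, named from markers such as Fcer2a and Ighd, held 1516, 1542, 1400 and 1419 CPM. T-like cells held 2145, 2021, 2039 and 2057 CPM. Neither range overlapped with that of GC B cells. Marginal zone B-like cells lay between CC and non-GC B-like cells at 1131 to 1319 CPM. CD8 T-like cells held 1867 to 1974 CPM and CD4 T-like cells 2493 to 2873 CPM, without overlap, while NK-like cells at 2401 to 2908 CPM overlapped with CD4 T-like cells. At the low end were plasma-like cells, with 276 to 400 CPM in the 3 libraries with at least 50 such cells, and pDC-like cells, with 302 and 317 CPM in 2 libraries.

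**Figure D1:**
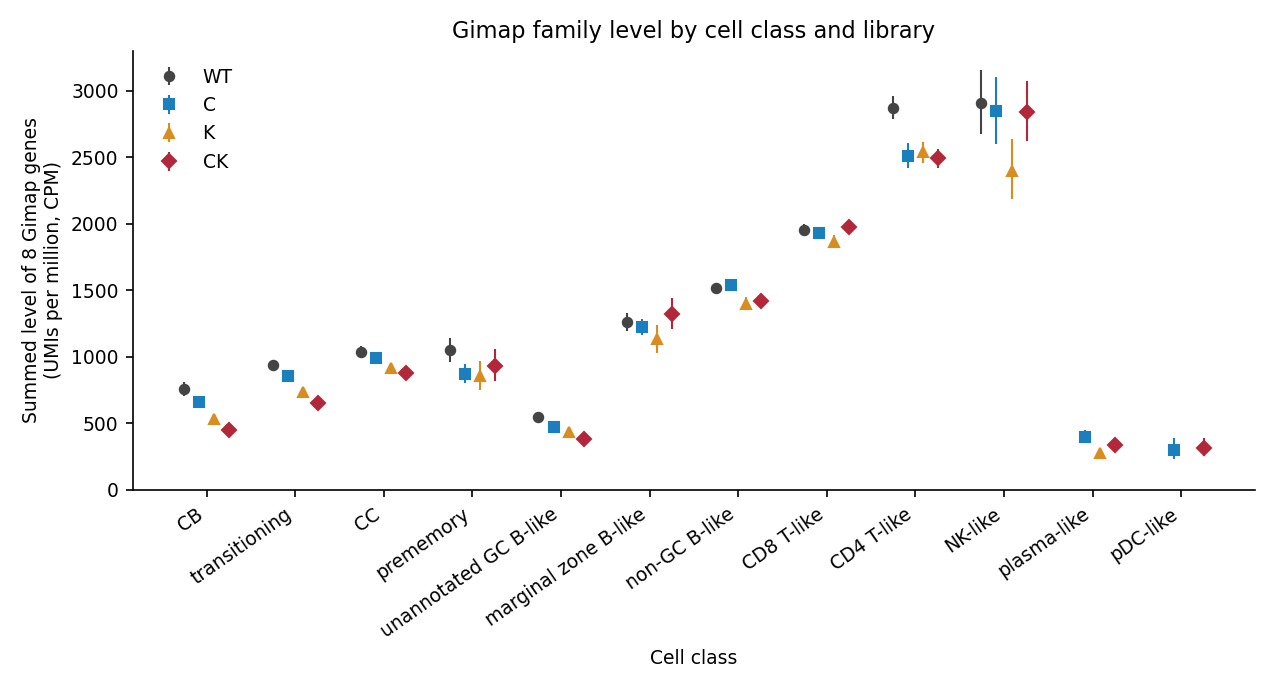
Summed level of the 8 Gimap genes in CPM (vertical axis) in each cell class (horizontal axis), 1 point per library with exact 95% Poisson intervals, for libraries with at least 50 cells of the class. Levels step up from CB (451 to 757 CPM) through non-GC B-like cells (1400 to 1542 CPM) to CD4 T-like cells (2493 to 2873 CPM), and within CB the libraries order as WT, C, K and CK.

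Within non-GC B-like cells the level differed by cluster more than by genotype. Cluster 7, led by Ly6d, held 1095, 1237, 1146 and 1179 CPM. Cluster 9, led by Ighd and Fcer2a, held 1583, 1639, 1512 and 1523 CPM, and cluster 13, led by Plac8 and Ccr6, held 2390, 2113, 2456 and 2284 CPM. The clusters did not overlap in any library. Cluster 7 held 741, 1245, 783 and 1130 cells and cluster 9 held 614, 1181, 367 and 589, so cluster 7 weighed more in K and CK than in WT and C. Cluster 8, led by interferon-induced genes, added 39 to 75 cells.

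CPM depends on the rest of the transcriptome, and GC B cells held more UMIs per cell than resting B cells. As Gimap UMIs per cell, CB held 3.98, 3.24, 2.89 and 2.10, CC 4.96, 3.62, 3.76 and 2.55, and non-GC B-like cells 3.55, 2.68, 2.58 and 1.88. On this scale non-GC B-like cells were below CB and CC in every library, and T-like cells, at 7.94, 5.55, 6.45 and 4.71 UMIs per cell, were above all 3 classes.

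The share of CB with any Gimap UMI was 95.1%, 90.0%, 89.3% and 82.0% at median depths of 5502, 4936, 5526 and 4604 UMIs. After thinning each cell to 2000 UMIs it was 73.0% (95% Clopper-Pearson interval 65.7 to 79.4), 67.7% (63.0 to 72.2), 63.9% (60.0 to 67.7) and 58.7% (55.5 to 61.8), with 9 to 30 shallower cells left out. In CC the thinned share was 85.9%, 83.2%, 83.1% and 79.6%, and in T-like cells 96.3% to 96.8%. Plasma-like cells, which have left the naive and GC B cell program, stood at 43.1%, 47.6% and 38.0% in C, K and CK after thinning, and pDC-like cells stood at 25% in C and 39.4% in CK after thinning, or 44.6% and 48.0% before it at median depths of 3480 and 3071 UMIs. WT and CK intervals in CB did not overlap, and this contrast was known for Gimap6 when the family was chosen. Each of these intervals covers counting error only.

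T cell RNA in B cell droplets gave a measured value. CB held 69.7 to 88.4 CPM of T cell markers, which at the Gimap-to-marker ratio of T-like cells would bring 17.1 to 21.6 CPM of Gimap, against 451 to 757 CPM measured. In CC the same calculation gave 43.0 to 53.5 CPM, against 881 to 1037 CPM measured. The calculation was also made with the non-GC B markers and their ratio in non-GC B-like cells. It gave 256 to 312 CPM in CB, 674 to 722 CPM in CC and 1387 to 1564 CPM in prememory cells. The prememory value was above the 855 to 1049 CPM measured there. What part RNA from such cells has in these levels was not tested. In CB without any T cell marker UMI the family held 764, 672, 549 and 459 CPM (126, 307, 415 and 710 cells), the same order as in all CB. Leaving out B cells with a T cell marker UMI kept the centred log2 ratio of CK over WT in CB at -0.70 and changed that in CC from -0.27 to -0.18.

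Members differed in how the family's UMIs were divided. UMIs were counted at transcript 3' ends and were not divided by length. In CB, Gimap1 took 40.5% to 44.0% of the family's UMIs, Gimap9 18.7% to 21.4% and Gimap6 14.6% to 17.2%, and no other member exceeded 6.73%. In T-like cells Gimap3 took 20.2% to 24.0% and Gimap1 18.0% to 21.2%, with Gimap9 at 6.85% to 7.02%. Gimap1 was the largest member in CB of every library, and in T-like cells Gimap3 was in WT, C and CK and Gimap1 in K.

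**Figure D2:**
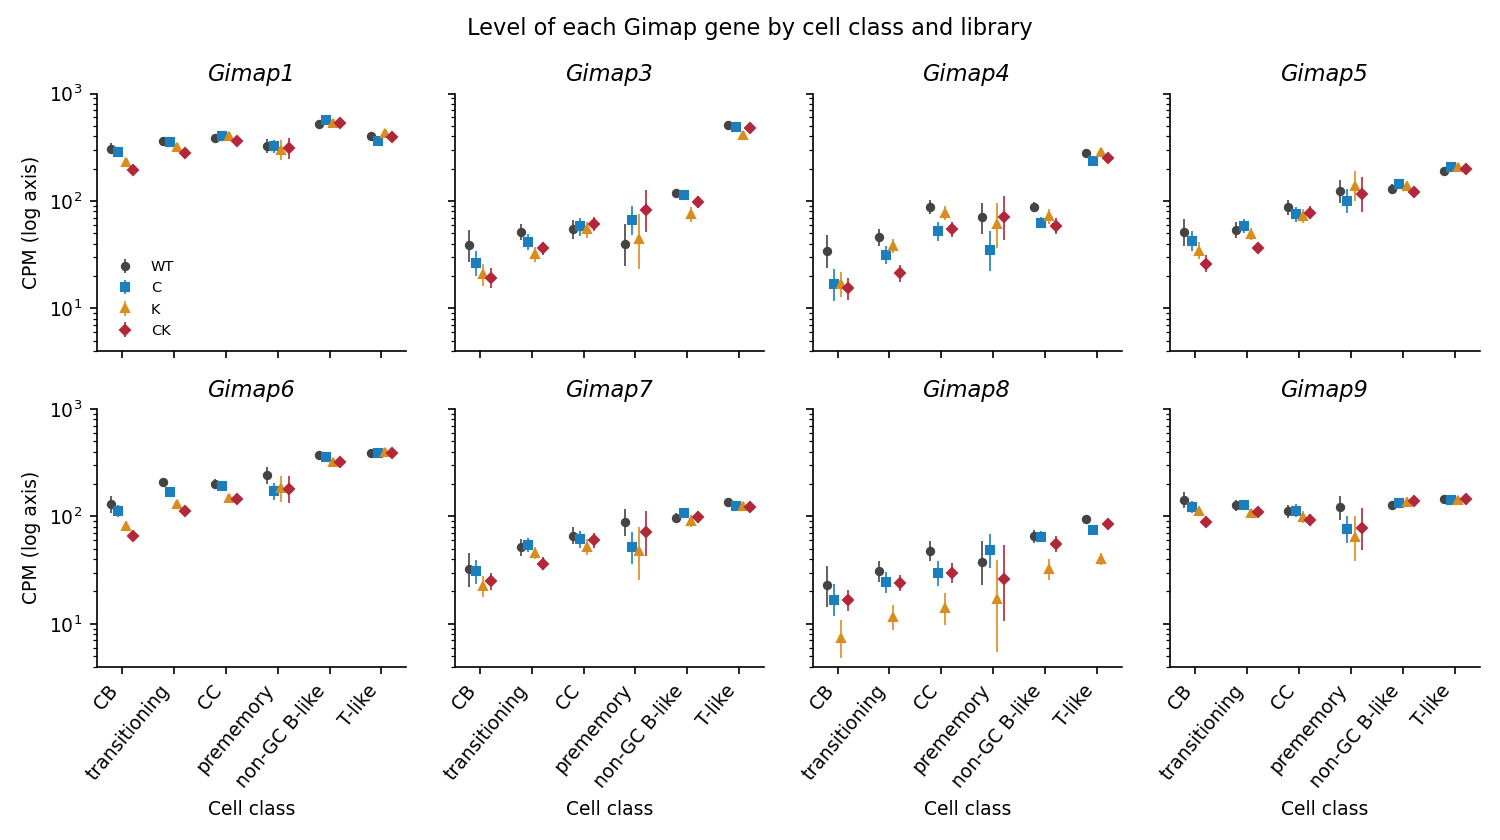
Level of each Gimap gene in CPM on a log axis (vertical) in 6 cell classes (horizontal), 1 point per library with exact 95% Poisson intervals. Gimap9 differs little between CB and T-like cells in WT (141 and 147 CPM), Gimap3 and Gimap4 step up most in T-like cells, and Gimap8 in K lies below the other libraries in every class shown.

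Gimap3, the relative of Gimap5, had the largest T-like over CB fold of the family. It held 38.5, 26.5, 20.7 and 19.3 CPM in CB. T-like cells held 504, 484, 411 and 478 CPM. These ranges were 13.1-fold to 24.7-fold apart within a library, and T-like cells were also 4.24-fold to 5.48-fold above non-GC B-like cells. That B cell class was a mixture, with 320, 264, 241 and 290 CPM in cluster 13 and 34.1, 49.0, 29.4 and 49.5 CPM in cluster 7. NK-like cells held 353, 312, 210 and 349 CPM, so the gene was not confined to T cells.

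Gimap4, the gene tied to T cell apoptosis, showed the second-steepest step. It held 34.3, 16.8, 16.8 and 15.3 CPM in CB, and 279, 237, 287 and 249.5 CPM in T-like cells. That was 8.14-fold to 17.1-fold within a library. It was also 2.57-fold to 4.6-fold higher in CC than in CB. Its level in non-GC B-like cells, 87.9, 62.7, 71.9 and 58.5 CPM, was a mixture of unlike clusters. Cluster 13, of 65 to 216 cells, held 378, 261, 455 and 297 CPM, cluster 9 held 58.8, 49.9, 58.1 and 53.0 CPM, and cluster 7 held 6.68, 8.16, 7.34 and 13.0 CPM.

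Gimap5, Gimap6, Gimap7 and Gimap8 formed a middle group, 3.03-fold to 7.51-fold higher in T-like cells than in CB. Gimap6, the binding partner of GABARAPL2, held 130, 113, 81.6 and 65.6 CPM in CB. In T-like cells it held 393, 390, 397 and 389 CPM, a spread far narrower than that in CB. It was the member closest to level between T-like and non-GC B-like cells within this group, at 1.05-fold to 1.24-fold.

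Gimap5, the lysosomal member, held 50.9, 42.3, 34.4 and 26.1 CPM in CB and 188, 205, 205 and 196 CPM in T-like cells. Prememory cells were 2.37-fold to 4.46-fold above CB for this gene, and they were above CC in all 4 libraries at 1.34-fold to 1.91-fold. Gimap7 held 32.2, 30.8, 22.5 and 24.8 CPM in CB and 136, 125, 124 and 122 CPM in T-like cells. Gimap8 was scarce in CB, with 22, 35, 26 and 78 UMIs or 22.9, 16.8, 7.39 and 16.6 CPM.

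Gimap1, the member needed for mature B cell survival, was higher in CPM in non-GC B-like cells than in T-like cells in all 4 libraries. As UMIs per cell the order turned, with T-like cells at 1.02-fold to 1.38-fold of non-GC B-like cells. It held 307, 288, 232 and 195 CPM in CB, and 516, 562, 536 and 526 CPM in non-GC B-like cells. T-like cells held 403, 363, 432 and 394 CPM, which was 1.26-fold to 2.02-fold above CB, but 0.70-fold to 1.08-fold of CB as UMIs per cell. CD4 T-like cells, at 567 to 656 CPM, were above CD8 T-like cells, at 313 to 339 CPM.

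Gimap9 had the smallest T-like over CB fold of the family, 1.04-fold to 1.64-fold in CPM but 0.64-fold to 0.81-fold as UMIs per cell. It held 141, 123, 113 and 87.9 CPM in CB, and 147, 142, 143 and 144 CPM in T-like cells. CC over CB was 0.79-fold to 1.06-fold, higher in CK alone, and prememory cells were below CB in all 4 libraries at 0.57-fold to 0.90-fold. All the other members were higher in CC than in CB in every library. Across 27 class-by-library units of the B lineage, Gimap9 had the lowest Pearson correlation with the sum of the other 7 members (0.58), and Gimap6 the highest (0.97). These units share libraries and depth, and the values are descriptive.

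Between classes, counts are read against all genes. T-like over CB was at least 2-fold in all 4 libraries for 6 of 8 members, against 12.9% of 9418 genes tested, with Gimap1 and Gimap9 as the exceptions. Non-GC B-like over CB was at least 2-fold in all 4 for Gimap3, Gimap4, Gimap5, Gimap6, Gimap7 and Gimap8, 6 of 8, against 8.99% of 8617 genes. In cluster 7, the largest of the class, this held for Gimap6 alone. There Gimap4 was below CB in every library, and Gimap3 was below CB in WT, at 34.1 CPM against 38.5 CPM. Gimap5, Gimap7 and Gimap8 were under 2-fold there in WT, at 88.2, 53.5 and 45.4 CPM against 50.9, 32.2 and 22.9 CPM in CB. As UMIs per cell, these 6 members stood in non-GC B-like cells at 0.96-fold to 1.52-fold of CB. CC over CB was at least 2-fold in all 4 libraries for Gimap4 and Gimap7 only, against 1.99% of 7674 genes.

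Genotypes are compared as 1 library each, so an effect of an allele cannot be told apart from a difference between mice. The family sum was lower in CK than in WT through the GC, most in CB, and close to WT in T-like cells. The centred log2 ratio of CK over WT was -0.70 (95% interval -0.83 to -0.58) in CB, -0.53 (-0.60 to -0.45) in transitioning cells and -0.27 (-0.36 to -0.19) in CC. It was -0.10 (-0.16 to -0.04) in non-GC B-like cells, where thinning to 2000 UMIs turned it to 0.31, and -0.05 (-0.08 to -0.01) in T-like cells. Within non-GC B-like cells, WT and CK held 1095 and 1179 CPM in cluster 7 and 1727 and 1332 CPM in cluster 8. They held 1583 and 1523 CPM in cluster 9 and 2390 and 2284 CPM in cluster 13. The part of the cluster mix in that ratio was not tested. Prememory cells, with 115 cells in CK, gave -0.15 (-0.38 to 0.06). The intervals of CB and CC did not overlap, but they carry counting error only and no difference between mice was tested. The CB value also holds Gimap6, whose low ratio there was known when the family was chosen. Nothing is therefore read from the step between CB and CC. CD4 T-like cells gave -0.17 (-0.23 to -0.11) and CD8 T-like cells -0.00 (-0.05 to 0.05).

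Single mutants gave smaller ratios in CB, -0.19 (-0.32 to -0.05) for C over WT and -0.36 (-0.49 to -0.24) for K over WT. In CC they were -0.09 (-0.18 to 0.01) and -0.03 (-0.12 to 0.06). In T-like cells C gave -0.06 (-0.10 to -0.02) and K gave 0.12 (0.08 to 0.16), and the K value became -0.07 without centring. In transitioning cells K gave -0.22 with centring and -0.35 without. The 3 contrasts share the WT library.

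GC B-like cells outside the annotation, almost all above 2500 detected genes where the annotation ends, held 550, 473, 438 and 379 CPM. Their centred CK over WT ratio was -0.51 (-0.58 to -0.44). The order of the libraries was that of annotated CB. In K, 405 of these 812 cells lay in cluster 22, which held 2 to 13 such cells in the other libraries, and the family stood at 403 CPM in that cluster.

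**Figure D3:**
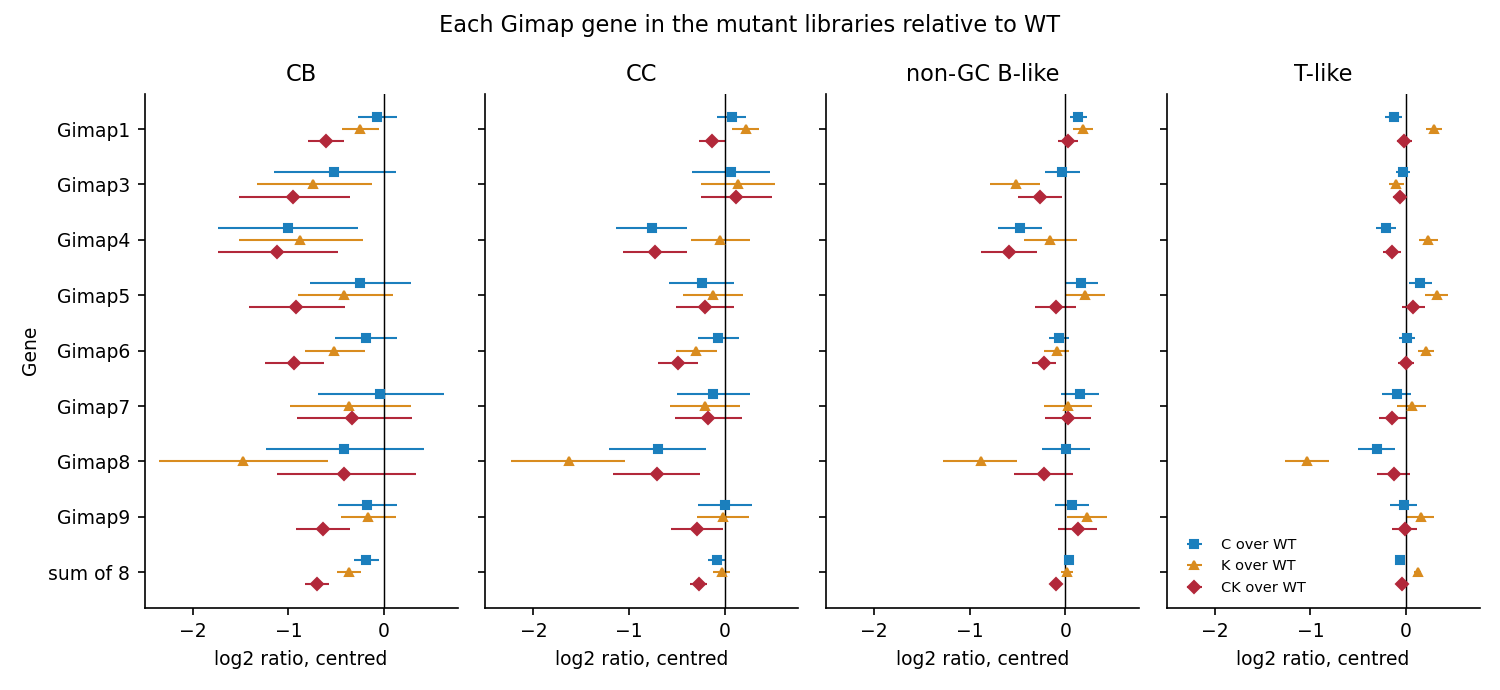
Centred log2 ratio of each mutant library over WT (horizontal axis) for each Gimap gene and for their sum (vertical axis) in 4 cell classes, with exact conditional binomial 95% intervals. In CB all 8 members lie below 0 in CK, in T-like cells the sum lies near 0, and Gimap8 in K stands at -1.48 in CB and -1.03 in T-like cells.

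All 8 members had a CK over WT ratio below 0 in CB. Those at least 1.5-fold lower numbered 6 of 8, where 10.6% of 8792 genes were. Since this contrast was known when the family was chosen, nothing is read from the count. Gimap4 stood at -1.12 (-1.74 to -0.48), Gimap3 at -0.95 (-1.52 to -0.36), Gimap6 at -0.94 (-1.25 to -0.63) and Gimap5 at -0.92 (-1.41 to -0.41). Just inside the limit were Gimap9 at -0.64 and Gimap1 at -0.61, and outside it Gimap8 at -0.42 (-1.12 to 0.33) and Gimap7 at -0.33 (-0.91 to 0.29). For C over WT in CB 1 of 8 was at least 1.5-fold lower, Gimap4, where 7.79% of genes were. For K over WT they were Gimap3, Gimap4 and Gimap8, 3 of 8, where 17% were.

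In transitioning cells the members at least 1.5-fold lower in CK were Gimap4 at -1.12 (-1.50 to -0.73) and Gimap6 at -0.91 (-1.08 to -0.74), against 7.8% of 9261 genes. In C none was, against 5.41%, and in K Gimap8 alone, against 17.2%. In CC they were Gimap4 at -0.73 (-1.06 to -0.40) and Gimap8 at -0.71 (-1.16 to -0.26), against 7.17% of 8530 genes. Gimap6 in CC was -0.48 (-0.69 to -0.28) and Gimap3 was 0.12 (-0.25 to 0.49). The same pair, Gimap4 and Gimap8, was lower in C, against 6.24%, and Gimap8 in K, against 16.5%.

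In non-GC B-like cells Gimap4 was at least 1.5-fold lower in CK, at -0.59 (-0.88 to -0.30), against 5.62%, none was in C, against 4.54%, and Gimap8 was in K, against 16.2%. The Gimap4 difference was not as large within the clusters of that class. CK held 13.0 CPM against 6.68 in WT in cluster 7, 53.0 against 58.8 in cluster 9 and 297 against 378 in cluster 13, and cluster 13 made up 116 of 1882 cells in CK and 165 of 1559 in WT. In T-like cells none of 8 was in CK, against 4.57%, none in C, against 5.18%, and Gimap8 was in K, against 15.3%. In GC B-like cells outside the annotation the members at least 1.5-fold lower were Gimap4 in C, against 4.39%, Gimap8 in K, against 15.2%, and Gimap6 in CK, against 6.9%.

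Prememory cells were few and their members went both ways. Gimap3 was at least 1.5-fold higher in CK, at 1.07, against 9.9% of genes, and in C, at 0.75 (-0.03 to 1.58), against 7.67%. Gimap9 was lower in C at -0.67 (-1.23 to -0.11), in K at -0.75 (-1.57 to 0.005) and in CK at -0.61 (-1.39 to 0.12). With it, Gimap4 and Gimap7 were lower in C, 3 of 8 against 9.41%, and Gimap7 and Gimap8 in K, 3 of 8 against 20.4%, while in CK it was the only member, against 13.7%.

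Gimap4 was below WT in C in each of these classes. C over WT was -1.01 (-1.74 to -0.28) in CB, -0.54 (-0.93 to -0.14) in transitioning cells, -0.76 (-1.14 to -0.39) in CC and -0.48 (-0.71 to -0.24) in non-GC B-like cells. It was -0.21 (-0.32 to -0.10) in T-like cells. In K the same gene stood at -0.88 (-1.52 to -0.22) in CB, but at -0.05 (-0.36 to 0.26) in CC and 0.23 (0.13 to 0.33) in T-like cells. In CK it was below WT in CB, transitioning, CC and non-GC B-like cells but stood at 0.04 (-0.84 to 0.87) in prememory cells. After thinning each cell to 2000 UMIs, which kept 130 of 1882 non-GC B-like cells in CK and 499 of 2717 in C, the ratios in that class turned to 1.62 in CK and 0.64 in C.

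Gimap8, the member with several GTPase domains, was low in K in GC B cells, other B cells and T cells alike. In CC it held 47.6, 29.7, 14 and 29.9 CPM. In T-like cells it held 93.9, 74.7, 40.2 and 85 CPM, from 218 UMIs in K and 399 to 617 in the others. K was the lowest library in both and no interval of K overlapped with another. The centred K over WT ratio was -1.48 (-2.35 to -0.59) in CB, -1.62 (-2.23 to -1.04) in CC, -0.88 (-1.28 to -0.50) in non-GC B-like cells and -1.03 (-1.27 to -0.80) in T-like cells. CK, which carries the same Kmt2d allele, gave -0.71 in CC and -0.13 (-0.30 to 0.04) in T-like cells. In early CB, with 10 UMIs in K and 4 in C, C was the lowest library.

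Gimap1, the main member in GC B cells, went from -0.61 (-0.80 to -0.41) in CB through -0.41 (-0.53 to -0.29) in transitioning cells to -0.13 (-0.27 to 0.01) in CC for CK over WT. Gimap6 kept a ratio below 0 in CK in non-GC B-like cells too, at -0.22 (-0.35 to -0.10), which turned to 0.11 after thinning, and stood at -0.00 (-0.08 to 0.08) in T-like cells, with -0.16 (-0.30 to -0.02) in CD4 T-like cells. In GC B-like cells outside the annotation Gimap6 stood at -0.87 (-1.04 to -0.71) and Gimap1 at -0.49 (-0.60 to -0.38).

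Along the deposited pseudotime, which orders GC B cells from CB towards CC and prememory cells, the family level in CPM went up in every library. With the rank cut into 5 equal bins within each library, bin 1 held 698, 543, 464 and 391 CPM and bin 5 held 1144, 1062, 995 and 962 CPM. As Gimap UMIs per cell, bin 1 held 4.26, 3.17, 3.03 and 2.19 and bin 5 held 4.28, 2.97, 3.36 and 2.30. All UMIs per cell averaged 6106, 5829, 6537 and 5606 in bin 1 and 3738, 2793, 3381 and 2390 in bin 5. The CB share of bin 1 was 45.1% in WT and 68.0% in CK, so the bins of different libraries do not hold the same cells. T cell marker CPM went up as well, from 83.9 to 105 in bin 1 to 107 to 191 in bin 5, and its part in the course of the Gimap level was not tested.

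Cutting the rank into the same 5 bins for all libraries, a choice made after the data were seen, set cells of similar position side by side. Bin 1 held 664, 563, 468 and 382 CPM. Bin 3 held 1043, 949, 790 and 581 CPM, and bin 4 held 1104, 1014, 880 and 707. CK was 55.5% to 65.1% of WT in the 5 bins, and in each the order was WT, C, K and CK. WT had only 28 cells in bin 5. CK cells carried more CB labels in each of the shared bins, for example 98.6% CB or early CB in bin 1 against 67.5% in WT, and the pseudotime was made from expression that may include these genes.

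**Figure D4:**
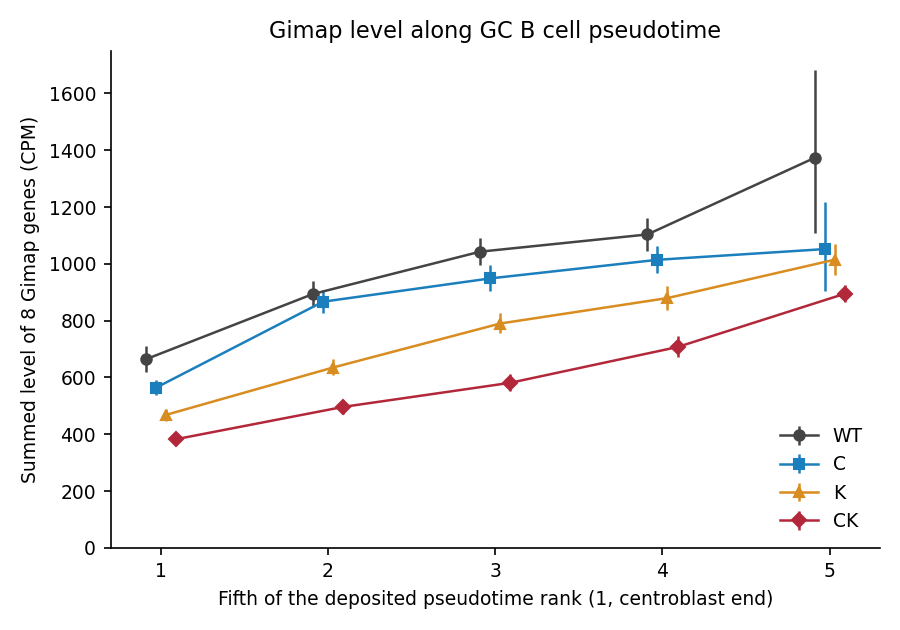
Summed level of the 8 Gimap genes in CPM (vertical axis) in 5 bins of the pseudotime rank shared by all libraries (horizontal axis, bin 1 at the CB end), 1 line per library with exact 95% Poisson intervals. WT goes from 664 CPM in bin 1 to 1104 CPM in bin 4 and CK from 382 to 707 CPM, below the other libraries in each bin.

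Related genes were compared as lists. Over all annotated GC B cells, 13 of 14 quiescence and recirculation genes and 10 of 10 interferon-inducible GTPase genes measured had a CK over WT ratio below 0, with medians of -0.40 and -0.59, against -0.63 for the 8 Gimap genes. In the partner and survival list 6 of 10 were below 0, with a median of -0.06. In CB, of 14 genes of lymphocyte quiescence and recirculation, 9 had at least 20 UMIs. Of these, 2 were at least 1.5-fold lower in CK, where 10.6% of 8792 genes were, and 1 was higher. Their median was -0.29, against -0.78 for the Gimap genes. The higher gene was Bach2, which represses plasma cell fate and is named here after its value was seen. The receptor of follicular homing, Cxcr5, stood at -0.66 (-1.17 to -0.13) and S1pr1, which guides egress, at -0.73 (-1.64 to 0.26). In CC, Txnip, an inhibitor of glucose uptake, stood at -0.62 (-1.01 to -0.22). Over all genes tested the median is 0 by the centring. The share of all genes at least 1.5-fold higher in CB is not given here, so nothing is read from counts of higher genes.

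Of 11 partner and survival genes, 10 were measured in CB, with none lower, against 10.6% of all genes, and 1 higher. That gene, the anti-apoptotic Bcl2, had 1 UMI in WT and 24 in CK, for a ratio of 2.34 (-0.28 to 7.70). In CC, Bcl2l11, which encodes the pro-apoptotic BIM, stood at -0.78 (-1.44 to -0.12) and Bcl2l1, which encodes the anti-apoptotic BCL-XL, at 0.75 (-0.11 to 1.69). Among 16 interferon-inducible GTPase genes of the Gbp and Irg families, 5 were measured in CB, with a median of -0.87. Of these, 3 were lower, against 10.6% of all genes, and 1 was higher. Gbp3 held 21.8 CPM in CB of WT and 10.6 CPM in CK. Gbp2 stood at -1.03 (-2.50 to 0.64), Igtp at -0.87 (-1.97 to 0.35) and Gbp9 at 1.11 (-0.36 to 3.05). These rest on 4 to 50 UMIs in WT or CK.

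Septins, whose GTPase domain resembles that of GIMAP proteins, went both ways in CB. Of 7 measured, 1 was lower in CK, against 10.6% of all genes, and 2 were higher. Sept9 stood at -0.93 (-1.58 to -0.24), Sept11 at 0.78 (0.05 to 1.60) and Sept10 at 2.12 (0.51 to 4.44), the last from 3 UMIs in WT. T cell markers had a median of 0.21 in CB and 0.69 in non-GC B-like cells for CK over WT, opposite in sign to the Gimap genes, with 6 and 7 of 8 measured.

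The genes with levels most like the family over 48 class-by-library units were Cd84, a SLAM family receptor (Pearson r 0.94), Zdhhc18, a palmitoyltransferase (0.93), Pglyrp1, a peptidoglycan recognition protein (0.91), Arhgap45 (0.91), Pstpip1 (0.89), Cd2, an adhesion receptor (0.89), Vasp (0.89), Tspan32 (0.88), AW112010 (0.88) and Adcy7 (0.88). Over the 27 B-lineage units they were Rnase6 (0.97), Unc93b1, which carries Toll-like receptors to endosomes (0.96), Rnf167 (0.95), the lysosomal protease Ctss (0.95), Trim12a (0.95), the class I molecule H2-D1 (0.95), Ogt (0.95), Sp100 (0.93), Zfp36 (0.93) and Tspan32 (0.93). Tspan32, a tetraspanin of blood cells, was in both lists. The units share libraries and depth, so these values only rank genes by likeness.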

How the data were processed

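Per the labels and the study's methods, sorted cells were sequenced with the 10x Chromium 3' kit and the authors made UMI counts with Cell Ranger 3.0 on mm10 and worked in Seurat 4.0. The deposited matrices hold raw UMI counts. The authors' deposited table of 9804 GC B cells gives subtypes from label transfer, counts per cell, cell cycle scores and a pseudotime rank used here as a score, and the cell cycle scores were not used. The percent of mitochondrial UMIs in that deposited table was computed by the authors in Seurat. Each of the 9804 cells was found in the matrices, with equal UMI totals for 79.9% and differences of at most 5 UMIs for the rest.

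Cells under 8% mitochondrial UMIs were clustered in scanpy 1.11.5 (3000 variable genes, 30 components, 15 neighbours, resolution 1.5) without Gimap, immunoglobulin and mitochondrial genes. Cells at or above 8% were not clustered. A cluster was named when exactly 1 class had at least 3 and at least 50% of its markers, a marker counting where it reached 0.25 of its highest cluster level, and fewer than 50% of the cells were doublet calls. These limits were set after the data were seen, and 3.42% to 5.92% of clustered cells stayed unnamed. Doublet calls (Scrublet, 3.32% to 5.01% of barcodes) were kept in the main values.

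Counts were summed per class and library, expressed as CPM with exact Poisson 95% intervals, and mutant over WT ratios were given as log2 with exact conditional binomial intervals, centred on the median over genes with at least 20 UMIs in the pair of libraries. UMIs remove PCR copies, and the intervals cover counting error only. A class entered with at least 50 cells, and a count of 0 on one side was set to 3. With 1 library per genotype no test was made. The ratio and its interval were tested on simulated data. Genes named are the 8 members, the 10 most like their sum by Pearson r of log2(CPM + 10) among genes reaching 100 CPM, over all and over B-lineage units, and up to 4 genes per related list at least 1.5-fold different in CK over WT of CB or CC. The members and lists were chosen with earlier results of these data known. The 10 alternatives changed centring, total, depth, doublets, cells with T cell markers, added cells, mitochondrial limit, averaging, gene minimum and gating. Upstream sequences came from RefSeq and gene models from GENCODE, both on GRCm38, and all 8 symbols matched. Protein sequences were not used here. A gene that the naming rule picked is not reported here.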

Additional observations from a re-analysis of the deposited data

Results flagged for a closer look

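After centring, the family sum in K over WT pointed in opposite directions in different cell classes. The centred log2 ratio was 0.12 in T-like cells but -0.27 over all annotated GC B cells, -0.36 in CB and -0.22 in transitioning cells. Each class holds 1 K library and 1 WT library, so the difference between classes was not tested. Without centring on the median over all genes the T-like value was -0.07, the same direction as the -0.44, -0.52 and -0.35 of the other classes.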

How the results depend on the processing

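No paired analysis was possible because each genotype had 1 library. Depth and the number of WT cells limit the members in CB, where Gimap8 rests on 22 UMIs in WT. The family ratio of CK over WT in CB lay between -0.77 and -0.63 under the alternatives. Without centring, K over WT became -0.44 over all annotated GC B cells, -0.52 in CB, -0.35 in transitioning cells and -0.17 in CC. It became -0.12 in non-GC B-like cells, from 0.01 (-0.05 to 0.08) with centring, and -0.07 in T-like cells, from 0.12. Both signs turned, as for Gimap9 in T-like cells at -0.04. Gimap7 in T-like cells went from 0.06 (-0.09 to 0.21) to -0.13. Thinning to 2000 UMIs, which kept 130 of 1882 non-GC B-like cells in CK, gave a family ratio in that class of 0.16 for C, 0.37 for K and 0.31 for CK, and -0.10 for C in T-like cells. There it turned the sign of Gimap4 in C (0.64), Gimap3 in K (0.23), and Gimap3 (0.55), Gimap4 (1.62) and Gimap6 (0.11) in CK, and of Gimap4 in CK of T-like cells (0.02). Leaving out B cells with a T cell marker UMI moved the family in CC to 0.05 for C and -0.18 for CK. Adding unannotated GC B-like cells to the annotated ones gave -0.08 for C, -0.10 for K and -0.36 for CK. A mitochondrial limit of 5% gave -0.65 for CK over all annotated GC B cells, -0.07, -0.11 and -0.18 for C, K and CK in non-GC B-like cells, 0.16 for K in T-like cells, and 0.01 for Gimap3 in K there, its sign turned. The mean of per-cell CPM gave -0.51 for CK over all annotated GC B cells. Leaving immunoglobulin, mitochondrial and ribosomal protein genes out of the total moved the log2 ratio of T-like over CB to 1.78, 1.89, 2.26 and 2.43 (WT, C, K, CK), and of T-like over non-GC B-like to 0.68, 0.59, 0.77 and 0.72. It moved non-GC B-like over CB to 1.49 in K, and CC over CB to 0.91 in K and 1.06 in CK. Gating cells on marker UMIs gave 0.72, 0.58, 0.79 and 0.77 for T-like over non-GC B-like, and 0.82, 1.08, 1.21 and 1.46 for non-GC B-like over CB. The cause of these shifts was not tested. Of the values of the family sum under all 10 alternatives, 183 stayed within their counting interval, 38 moved further and 2 turned sign. For single members these were 1299, 133 and 8. The counts of turned signs leave out ratios whose main interval held 0.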

Other observations

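Cells at or above 8% mitochondrial UMIs, which were not clustered, held a summed Gimap level of 1200.2 CPM (WT), 1234 CPM (C), 1061 CPM (K) and 1083 CPM (CK). The summed T cell markers stood at 1676, 1546, 2703 and 2705 CPM in the same order.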
